A study of Mus musculus with 6 samples.

Results

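Cholesterol synthesis was described in the mouse aorta through 8 genes, namely Srebf2, Hmgcs1, Sqle, Idi1, Fdps, Cyp51, Insig1 and Fdft1, out of 55335 genes in the count table. They were chosen by symbol, as the gene of the sterol-sensing transcription factor SREBP2 and 7 of its known targets. The aorta came from wild-type C57BL/6 mice of 6 weeks (young, 3 mice) and of 6 months (aged, 3 mice), with 1 library per mouse and no treatment. The study describes all of the mice as male. About 2 cm of vessel was taken from each mouse after the surrounding fat had been dissected away. Each library holds the RNA of this whole piece, and transcripts of brown and white fat markers were present in every library (values below). Libraries were made with a SMARTER mRNA kit, read single-ended and counted per gene. The comparison asks whether transcripts of the pathway differed between young and aged aorta.

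Cells make cholesterol from acetyl-CoA through mevalonate, isoprenoid units, squalene and lanosterol. When sterol in the endoplasmic reticulum is low, SREBP2 is carried to the Golgi and cut there, and the released fragment enters the nucleus and turns on the genes of the pathway. When sterol is plentiful, INSIG proteins hold the SREBP carrier SCAP back. In the vessel wall, cholesterol comes both from this synthesis and from lipoproteins taken up from the blood.

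SREBP2 acts at promoters, together with the factors NF-Y and Sp1, so the bases in front of a start site show where the members are alike. RefSeq promoter windows (GRCm38.p6) were found for 5 of the 8 genes, Srebf2, Hmgcs1, Idi1, Cyp51 and Insig1, and were searched on both strands over the 250 bases before the RefSeq start. RefSeq and GENCODE M21 starts differ, so the last 105 bases of the Idi1 window, 88 of Srebf2 and 49 each of Cyp51 and Insig1 lie inside the GENCODE gene. The letters sought were TCACNCCAC, a core of the sterol regulatory element, CCAAT, the NF-Y box, and GGGCGG, the GC box bound by Sp1. Shown here, 5′ to 3′ on the gene's own strand and only up to the GENCODE start, are the windows of the regulator Srebf2 and of its targets Hmgcs1 and Insig1, whose levels were the most alike over the 6 libraries. Capitals mark a match to one of the 3 motifs in either orientation, and no 2 matches overlapped in these windows.
Srebf2, chr15:82147019-82147180, plus strand: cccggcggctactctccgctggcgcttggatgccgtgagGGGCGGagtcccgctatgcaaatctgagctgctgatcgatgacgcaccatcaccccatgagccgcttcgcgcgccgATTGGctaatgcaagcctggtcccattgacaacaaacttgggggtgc
Hmgcs1, chr13:119690101-119690350, plus strand: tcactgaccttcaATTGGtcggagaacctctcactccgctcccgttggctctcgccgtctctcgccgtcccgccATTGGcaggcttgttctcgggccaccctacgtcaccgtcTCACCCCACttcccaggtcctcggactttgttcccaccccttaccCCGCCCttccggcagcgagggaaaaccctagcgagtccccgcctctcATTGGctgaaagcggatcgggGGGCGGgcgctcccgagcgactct
Insig1, chr5:28071162-28071362, plus strand: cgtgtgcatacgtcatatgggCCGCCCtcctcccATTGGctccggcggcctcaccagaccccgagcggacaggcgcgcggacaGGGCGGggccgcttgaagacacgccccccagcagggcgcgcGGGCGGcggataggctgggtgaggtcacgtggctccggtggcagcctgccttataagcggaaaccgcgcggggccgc
The sterol regulatory core was matched in 1 of the 5 windows, that of Hmgcs1, from 137 to 129 bases before the RefSeq start, against 1.05% of all 32851 windows of the same length. CCAAT was present in 5 of 5 windows and in 33.8% of all windows. GGGCGG was present in 5 of 5 and in 32.7% of all. Hmgcs1 carried 3 CCAAT boxes and 2 GC boxes, Insig1 carried 1 and 3, Srebf2 1 and 4, Idi1 2 and 1, and Cyp51 1 and 1, of which 3 in Srebf2, all 3 in Idi1 and 1 in Cyp51 lay inside the GENCODE gene. A match describes letters and not a bound site, and a window without one says only that these letters were not there.

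The libraries summed to between 31049632 and 45832185 counts, of which the 8 genes took between 5275 and 22006. Smooth muscle defined the tissue, with Myh11, the myosin of smooth muscle, between 6152 and 10139 CPM (the count over the library total, on the usual CPM scale, after TMM, edgeR's correction for library composition). Genes of the mitochondrial genome took 14.9% to 21.2% of counts in young and 23.1% to 30.4% in aged libraries. Young replicate 1 stood apart. Xist, the RNA of the inactive X chromosome, was at 306 CPM there and at most at 0.636 elsewhere, while Y-linked Ddx3y was at 1.09 against 44.8 to 65.6, which goes against the description of the mice as male. The same library held the clock gene Arntl at 49.8 CPM against 0.747 to 8.14, and the cardiac myosin gene Myh6 at 79.7 against 0.875 to 13.1. Aged replicate 2 held Ucp1, the uncoupling protein of brown fat, at 1422 CPM against 45.2 to 361. Results below are therefore given with and without these 2 libraries where they rest on them.

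Transcripts of the 8 genes spanned moderate levels, and no gene differed between the ages at the threshold of the test. The scale for comparing genes is FPKM, the count scaled for the length of the gene and for the reads of the library. By the mean FPKM of the 6 libraries, Insig1 was first at 14.4 (6.84 to 27.4), then Hmgcs1 at 11.2 (5.81 to 18.1) and Srebf2 at 10.2 (6.36 to 15.2). Fdft1 followed at 6.9 (3.81 to 10.8), Fdps at 5.75 (2.68 to 11.7) and Cyp51 at 4.81 (2.73 to 8.37). Sqle at 3.0 (1.76 to 5.35) and Idi1 at 2.71 (1.66 to 4.01) were last. Ranges of neighbours in this order overlapped at every step. Within libraries, Cyp51 was above Sqle in each one, while the other neighbours changed places in at least 1 library. The order is thus clear between its ends and, among neighbours, only for Cyp51 over Sqle.

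The ages were compared on counts by the quasi-likelihood test of edgeR, with Benjamini-Hochberg adjustment over the 16612 genes tested. All 8 members were tested and 0 of them were called at an adjusted p below 0.05, where 0% of all genes were called. At an unadjusted p below 0.05, 2 members were lower, Srebf2 and Sqle, and 0 were higher, where 4.82% of all genes were lower and 5.56% higher. Fitted levels were lower in aged aorta for 6 members and higher for 2, Idi1 and Fdft1, where 47.9% of all genes were lower. Idi1 and Fdft1 were lower by limma on log2 FPKM, where the median of all genes also lay below 0, at -0.12 and -0.19 with pseudocounts of 1 and 0.1. The aged libraries all lay below the young ones for 2 of 8 members, against 8.78% of all genes, and all above for 0, against 7.74%. DESeq2 called 0 of the 8, where it called 2.03% of all genes. The median log2 fold change (aged over young) of the members was -0.43, and that of all genes tested was 0.02. In whole tissue, fewer cells of a type and less RNA per cell cannot be told apart.

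**Figure D1:**
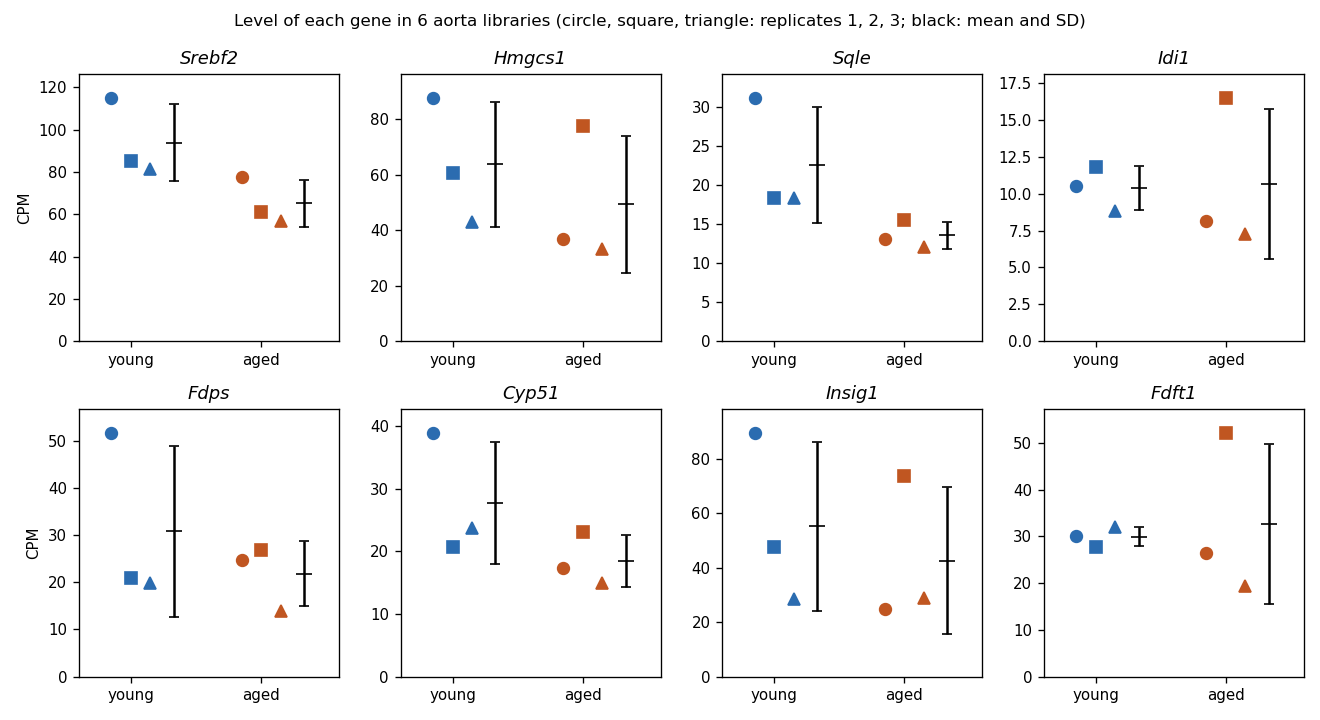
CPM of each gene in the 6 libraries, with young in blue and aged in orange, replicates 1, 2 and 3 as circle, square and triangle, and the mean with its SD (n = 3) in black; each vertical axis starts at 0 and has its own range. Young replicate 1 is the highest library in 6 of the 8 panels, aged replicate 2 in the other two, and aged replicate 3 is the lowest in 7.

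Srebf2 encodes the precursor of SREBP2 and lies on chromosome 15 of GRCm38 from 82147181 to 82205379 on the plus strand (GENCODE M21). Its level was 115, 85.3 and 81.4 CPM in young replicates 1, 2 and 3, and 77.5, 61.1 and 56.7 in aged replicates 1, 2 and 3. Each aged library was below each young one, with aged replicate 1 only slightly under young replicate 3. Means were 93.8 ± 18.3 CPM (SD, n = 3) and 65.1 ± 10.9 (SD, n = 3). The log2 fold change was -0.53 ± 0.20 (SE), with a 95% interval of -1.0 to -0.05 and an edgeR adjusted p of 0.446. The exact two-sided permutation test gave p = 0.1, the smallest that 3 against 3 allow. Without young replicate 1 the log2 fold change was -0.35, and without aged replicate 2 it was -0.48. Srebf2 was the member in which aged replicate 2 did not stand out, at 0.911 times the mean of aged replicates 1 and 3.

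Insig1, which retains SCAP and SREBP2 in the endoplasmic reticulum and is itself an SREBP target, lies on chromosome 5 from 28071363 to 28078662 on the plus strand. It was at 89.3, 47.4 and 28.6 CPM in the young libraries and at 24.9, 73.5 and 29.0 in the aged ones. Levels of both groups covered nearly the same range, since aged replicate 2 exceeded young replicates 2 and 3 and aged replicate 3 was level with young replicate 3. Its log2 fold change was -0.38 ± 0.53 (SE), from -1.62 to 0.87, with an edgeR adjusted p of 0.817 and an exact permutation p of 0.6. It was 0.17 without young replicate 1, -1.03 without aged replicate 2 and -0.49 without both. Its sign turned only when young replicate 1 alone was left out. Insig1 had the widest SE of the 8 genes, and its highest library was 3.59 times its lowest.

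The mevalonate part of the pathway is represented by Hmgcs1, Idi1 and Fdps. Hmgcs1, the cytosolic HMG-CoA synthase at the entry of the pathway, lies on chromosome 13 from 119690379 to 119708260. Its levels were 87.6, 60.6 and 42.9 CPM in young and 36.9, 77.6 and 33.2 in aged aorta. As for Insig1, the groups overlapped through aged replicate 2, which was second only to young replicate 1. The log2 fold change was -0.37 ± 0.39 (SE), from -1.29 to 0.54 (edgeR adjusted p = 0.752, exact permutation p = 0.4). It moved to -0.06 without young replicate 1 and to -0.86 without aged replicate 2.

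Idi1, the isomerase that makes dimethylallyl diphosphate, lies on chromosome 13 from 8885501 to 8892451. It was at 10.5, 11.8 and 8.86 CPM in young and at 8.18, 16.5 and 7.25 in aged libraries. Aged replicate 2 was the highest of the 6, and the other 2 aged libraries were the lowest. Its log2 fold change was 0.04 ± 0.34 (SE), from -0.76 to 0.84 (edgeR adjusted p = 0.978, exact permutation p = 0.9), and it was -0.43 without aged replicate 2 and -0.02 when scaled by the library total without mitochondrial genes. Fdps, the farnesyl diphosphate synthase at the branch to sterols, dolichol and prenylated proteins, lies on chromosome 3 from 89093588 to 89101959 on the minus strand. It was at 51.7, 21 and 19.8 CPM in young and at 24.7, 27.0 and 14.0 in aged aorta. Young replicate 1 was 2.54 times the mean of the other 2 young libraries, the largest such ratio of the 8 genes, and the other 5 libraries were mixed between the ages. The log2 fold change of -0.49 ± 0.43 (SE), from -1.49 to 0.51 (edgeR adjusted p = 0.696, exact permutation p = 0.6), became 0.11 without young replicate 1.

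Steps committed to sterol are represented by Fdft1, Sqle and Cyp51. Fdft1, the squalene synthase, lies on chromosome 14 from 63145150 to 63179578 on the minus strand. It was at 30.1, 27.8 and 32.0 CPM in the young and at 26.5, 52.1 and 19.5 in the aged libraries. The young libraries lay close together, while the aged ones lay on both sides of them. Aged over young, the log2 fold change was 0.13 ± 0.34 (SE), from -0.68 to 0.93 (edgeR adjusted p = 0.913, exact permutation p = 1.0). It was -0.38 without aged replicate 2, and -0.17 by limma on log2(FPKM + 1). Of its 4227 exon bases, 774 are shared with Ctsb on the opposite strand, which had between 21407 and 43472 counts per library, and the strand setting of the counting is not given in the sources used here, so part of the Fdft1 count may belong to Ctsb. Fdps shares 1124 of 4208 exon bases with Gm43738 on the same strand. Hmgcs1 shares 557 of 4594 with Gm48342 and Idi1 323 of 3505 with Gm48574, on the opposite strand. These 3 partners had 0 counts in every library, and how reads in shared bases were counted is not given.

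Sqle, the squalene monooxygenase that makes squalene epoxide, lies on chromosome 15 from 59315077 to 59331192. It was at 31.2, 18.3 and 18.3 CPM in young and at 13.1, 15.5 and 12.1 in aged aorta. All aged libraries were below all young ones, and young replicate 1 was well above the rest. Means were 22.6 ± 7.48 CPM (SD, n = 3) and 13.6 ± 1.75 (SD, n = 3). Its log2 fold change of -0.73 ± 0.26 (SE), from -1.34 to -0.13, was the largest in size of the 8 genes, with an edgeR adjusted p of 0.421 and an exact permutation p of 0.1. Without young replicate 1 it was -0.42, and without aged replicate 2 it was -0.84.

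Cyp51, the lanosterol demethylase, lies on chromosome 5 from 4081145 to 4104746 on the minus strand. Its levels were 38.9, 20.7 and 23.8 CPM in young and 17.4, 23.1 and 15 in aged libraries. Only aged replicate 2 reached into the young range. Cyp51 shares 166 of its 4415 exon bases with Akap9 on the opposite strand. A log2 fold change of -0.59 ± 0.28 (SE), from -1.26 to 0.08, was fitted (edgeR adjusted p = 0.524, exact permutation p = 0.2). It was -0.26 without young replicate 1 and -0.78 without aged replicate 2.

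Read across the pathway, the 2 libraries that stand apart held the highest value of every one of the 8 genes. Their summed level was 454, 293 and 256 CPM in young and 229, 346 and 187 in aged replicates 1, 2 and 3. Young replicate 1 was the highest library for 6 of 8 members, where it was the highest for 13.1% of all genes tested. Aged replicate 3 was the lowest for 7 of 8, where it was the lowest for 15% of all. Without young replicate 1 the median log2 fold change of the members was -0.0014 and 4 of 8 were lower. Without aged replicate 2 it was -0.73 and all 8 were lower. Leaving out both gave -0.43 again, with 8 of 8 lower and 0 called. The number of members at an unadjusted p below 0.05 was 0, 3 and 2 without young replicates 1, 2 and 3. It was 1, 3 and 0 without aged replicates 1, 2 and 3, and 1 without both libraries that stand apart.

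**Figure D2:**
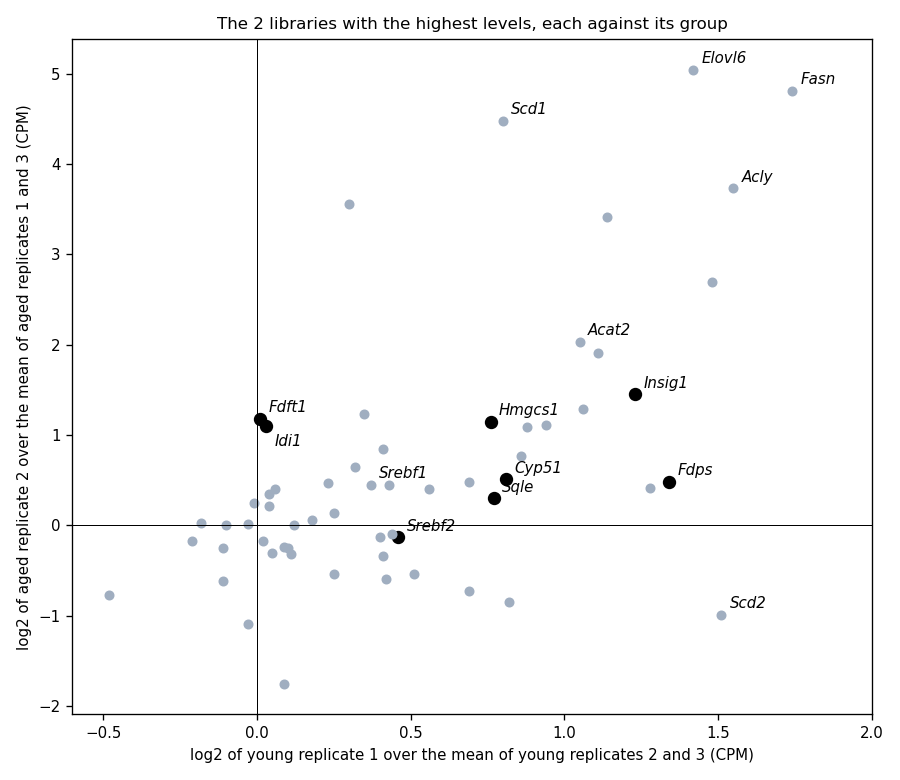
Each point is 1 lipid gene, with the log2 ratio of young replicate 1 to the mean of the other young libraries on the horizontal axis and that of aged replicate 2 to the mean of the other aged libraries on the vertical axis, both in CPM; the 8 genes are black and other sterol and fatty acid genes grey. Idi1 and Fdft1 lie near 0 horizontally and above 1 vertically, Fdps reaches 1.34 horizontally, Insig1 and Hmgcs1 are high on both axes, and the fatty acid genes Elovl6 and Fasn reach 5.04 and 4.81 vertically.

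Insig1 and Hmgcs1 were high in both libraries, while Idi1 and Fdft1 stood out in aged replicate 2 and not in young replicate 1. In young replicate 1, Fdps and Insig1 were 2.54 and 2.35 times the mean of the other young libraries, and Cyp51, Sqle and Hmgcs1 were 1.75, 1.71 and 1.69 times it. Idi1 and Fdft1 were at 1.02 and 1.01 times it, level with their group. In aged replicate 2 the order was another one, with Insig1 at 2.73 times the mean of the other aged libraries, Fdft1 at 2.26, Hmgcs1 at 2.22 and Idi1 at 2.14. Cyp51 at 1.43, Fdps at 1.4 and Sqle at 1.23 differed less there. Set against Srebf2 in FPKM within the same library, Hmgcs1 was above the regulator in young replicates 1 and 2 and aged replicate 2, and Insig1 in those and in aged replicate 3. Both ratios were highest in aged replicate 2, where Hmgcs1 had 14.4 and Insig1 20.3 FPKM against 7.26 of Srebf2. The log2 ratio of Idi1 to Srebf2 in CPM, in which gene length moves all libraries alike, was -1.89 in aged replicate 2 and -3.44 to -2.86 in the others.

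Across the 6 libraries, log2 CPM of the 28 pairs of members had Pearson correlations between 0.0 and 0.97, with a median of 0.76 (Spearman's rho, 0.60). These are descriptions over 6 points that share libraries, depth and group, and the same pairs within groups ran from -0.04 to 0.98 with a median of 0.73. The most alike pairs were Hmgcs1 with Insig1 (r = 0.97) and Sqle with Cyp51 (r = 0.96). The least alike were Srebf2 with Fdft1 (r = 0.0) and Srebf2 with Idi1 (r = 0.03). Over the 4 libraries left without young replicate 1 and aged replicate 2, a choice made after seeing the data, the same 4 pairs had r = 0.89, 0.95, 0.92 and 0.79. The low values of these pairs thus rest on the 2 libraries left out. Other pairs fell, such as Fdps with Insig1 from 0.75 to 0.0 and Cyp51 with Insig1 from 0.77 to 0.32. All 28 pairs then ran from 0.0 to 1.0, with a median of 0.74. With Fasn, the fatty acid synthase, Pearson's r over 6 libraries was 0.90 for Idi1, 0.78 for Hmgcs1, 0.26 for Sqle and -0.08 for Srebf2. Spearman's rho for these was 0.94, 0.94, 0.66 and 0.43, and r over the 4 libraries was 0.98, 0.98, 0.71 and 0.69, so the low values of Sqle and Srebf2 rest on the same libraries. For Fdft1, r with Fasn went the other way, from 0.86 over the 6 libraries to 0.43 over the 4. Marker genes of other tissues were as near to some members. With Ucp1 of brown fat, r over the 6 libraries was 0.95 for Idi1, 0.74 for Hmgcs1, 0.15 for Sqle and -0.15 for Srebf2. With cardiac Myh6 it was -0.31, 0.24, 0.79 and 0.93. Over the 4 libraries, Idi1 with Ucp1 had r = 0.83 and Srebf2 with Myh6 0.91. The reason for these likenesses was not tested.

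Outside the 8, 10920 genes averaged 5 CPM or more, and those most like the average member over the 6 libraries were Dhrs3 (r = 0.989), Phf1 (r = 0.985), Slc22a15 (r = 0.982), Hist2h2be (r = 0.976) and Ptrh2 (r = 0.974). Without the 2 farthest libraries, young replicate 1 and aged replicate 3, their r lay between 0.91 and 0.99. The 5 had been picked from the 10920 for their r over these same libraries, so this is not a separate check. Dhrs3, a retinal reductase, was at 119, 98.9 and 88.5 CPM in young and 78.3, 107 and 70.9 in aged libraries, the same order of libraries as the average member. Of the other genes of the pathway, Dhcr7, the last reductase of one arm of sterol synthesis, was nearest, with r = 0.96 and rank 16.

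The rest of the pathway was read from 4 lists by role, with 44 genes outside the 8, of which 43 were tested. EdgeR called 0 of the 43. At an unadjusted p below 0.05, 5 were lower and 2 higher, where 4.82% of all genes were lower and 5.56% higher. The fitted level was lower for 28 and higher for 15, where 47.9% of all genes were lower, and the median log2 fold change was -0.06. The aged libraries all lay below the young ones for 8, against 8.78% of all genes, and all above for 2, against 7.74%. DESeq2 called 1 of the 43, which was lower, where it called 2.03% of all genes.

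Of 15 other synthesis enzymes, 10 had a lower and 5 a higher fitted level, and their median log2 fold change was -0.21. At an unadjusted p below 0.05, 3 were lower, where 4.82% of all genes were. Msmo1, a methylsterol oxidase, was at 37.1, 30.3 and 24.4 CPM in young and 23.0, 19.6 and 18.9 in aged aorta (log2 fold change -0.58, adjusted p = 0.414 by edgeR). Its groups did not overlap and young replicate 1 was its highest library, as in Srebf2 and Sqle. Young replicate 1 was the highest library for 9 of the 15 and aged replicate 2 for 5, where they were the highest for 13.1% and 17.7% of all genes tested.

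**Figure D3:**
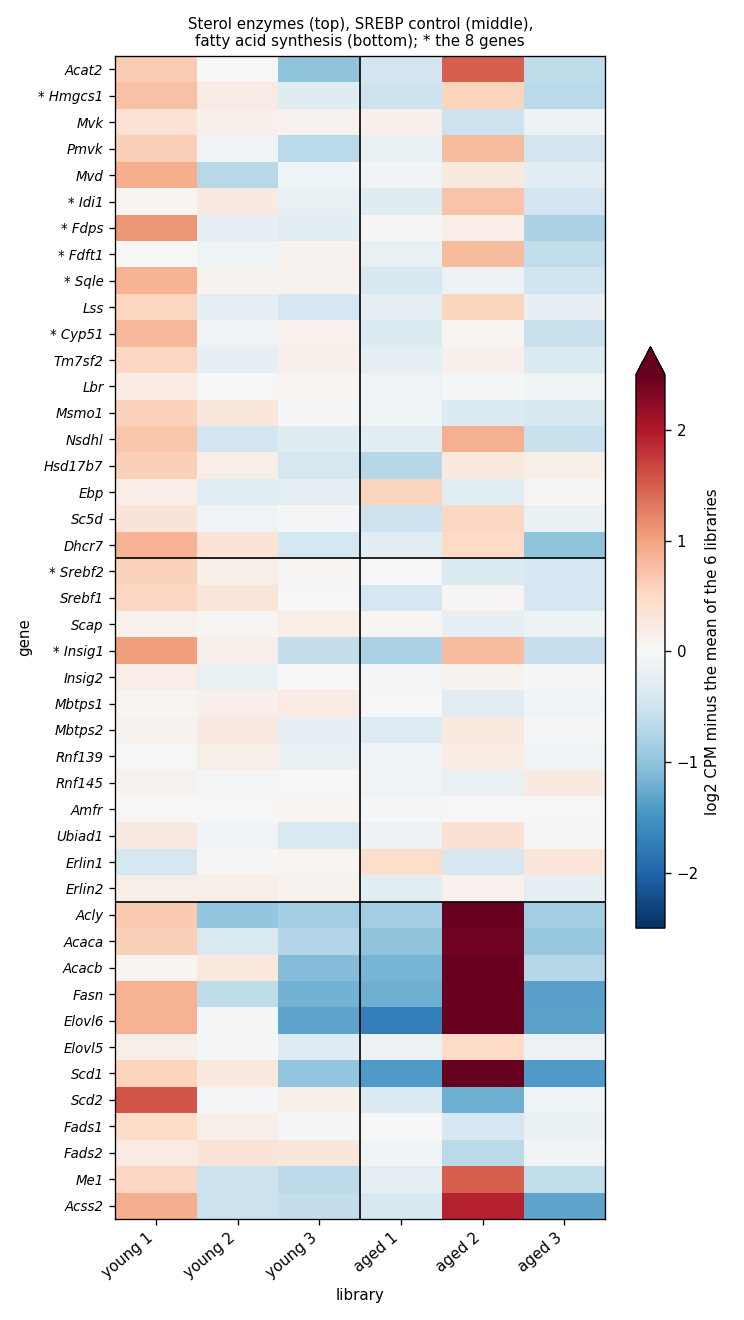
Log2 CPM of each gene minus its mean over the 6 libraries, with libraries in columns and genes in rows, grouped as sterol enzymes in pathway order, SREBP control genes, and fatty acid synthesis; a star marks the 8 genes, and the colour scale ends at 2.5, which some fatty acid genes pass. Red marks most sterol enzymes in the young replicate 1 column, where Idi1 and Fdft1 are close to their means. The darkest red is in aged replicate 2 among the fatty acid genes.

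In the control of SREBP, 8 of 11 other genes had a lower fitted level, with a median log2 fold change of -0.03. Srebf1, which encodes SREBP1, was at 71.8, 61.2 and 49.6 CPM in young and 37.5, 50.9 and 37.2 in aged libraries (log2 fold change -0.54 ± 0.21 SE, edgeR adjusted p = 0.446). Only aged replicate 2 reached the young range. Erlin2 and Erlin1, membrane proteins that bind the SREBP machinery, had log2 fold changes of -0.25 and 0.25, each with a 95% interval that included 0. Scap, the carrier itself, varied little, with its highest library at 1.28 times its lowest.

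For uptake and transport, 7 of 9 tested genes had a lower fitted level. Lipa, the lysosomal acid lipase that frees cholesterol from its esters, was at 32.8, 36.3 and 27.6 against 49.0, 54.2 and 44.8 CPM (log2 fold change 0.61, adjusted p = 0.377 by edgeR), with each aged library above each young one. Stard4, a sterol carrier, had a log2 fold change of -0.50, with groups that overlapped.

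The branches that use isoprenoids for purposes other than sterol had 3 genes with a lower and 5 with a higher fitted level. Pdss1, a subunit of the enzyme that builds the coenzyme Q tail, was at 3.57, 3.25 and 2.83 CPM in young and 4.72, 6.31 and 4.35 in aged aorta (log2 fold change 0.67, adjusted p = 0.456 by edgeR). Its partner Pdss2 had a log2 fold change of 0.08, which was -0.45 without aged replicate 2. Dhdds, of dolichol synthesis, was lowest in aged replicate 2, at 7.42 CPM against 22.6 to 30.5 elsewhere.

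**Figure D4:**
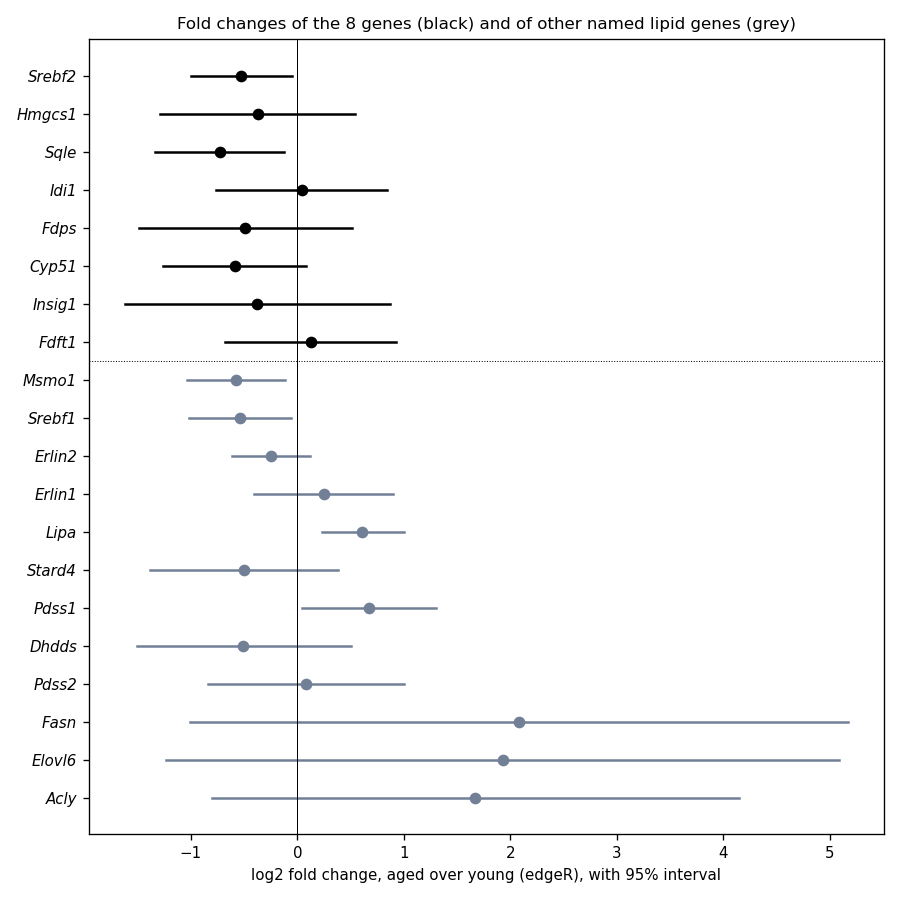
Log2 fold change of aged over young aorta from edgeR (dots) with its 95% interval (lines) for the 8 genes in black and for other named lipid genes in grey, 3 libraries a group. Intervals of Srebf2 and Sqle lie below 0, those of the other 6 genes cross it, and those of Fasn, Elovl6 and Acly are the widest.

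Fatty acid synthesis, the lipid pathway that SREBP1 drives more than SREBP2, is given for comparison. Its 12 genes summed to 3011, 1825 and 1144 CPM in young and 1031, 13366 and 985 in aged replicates 1, 2 and 3, so aged replicate 2 exceeded every other library. Fasn reached 3809 CPM there against 130 to 603 elsewhere, and its log2 fold change of 2.08 became -1.24 without it. Elovl6, which lengthens fatty acids, and Acly, which supplies cytosolic acetyl-CoA, had log2 fold changes of 1.93 and 1.67, which became -1.61 and -0.68. EdgeR called 0 of the 12. At an unadjusted p below 0.05, 2 were lower and 0 higher, where 4.82% of all genes were lower and 5.56% higher. Those 2, named after their values were seen, were the desaturases Scd2 (log2 fold change -1.23, edgeR adjusted p = 0.449) and Fads2 (-0.51, adjusted p = 0.446), with each aged library below each young one. Scd2 was at 202, 66.8 and 74.4 CPM in young and 53.6, 29.3 and 62.9 in aged replicates 1, 2 and 3. The size of its difference thus rests largely on young replicate 1 and aged replicate 2. These were 2.85 and 0.503 times the mean of the other libraries of their group. Aged replicate 2 was the highest library for 9 of the 12 and the lowest for 3, against 17.7% and 18.2% of all genes tested. The median log2 fold change of the 12 was 0.90, against -0.43 for the 8 sterol genes, and that difference was not tested. While Fasn in aged replicate 2 was 28 times the mean of the other aged libraries, the members were between 0.911 and 2.73 times theirs.

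Markers of other cell types also differed between libraries. Brown adipocyte markers (7 genes) summed to 1959 CPM in aged replicate 2 and to 134 to 634 elsewhere, and cardiac muscle markers (7 genes) to 359 CPM in young replicate 1 and to 50.5 to 73.4 elsewhere. White adipocyte markers (10 genes) summed to 1060 to 2295 CPM in young and 1125 to 3103 in aged libraries, the highest being aged replicate 2. Macrophage markers (8 genes) summed to 90.0 to 117 CPM in young and 128 to 388 in aged libraries. Of the 8, 5 were higher in all aged than in all young libraries, against 7.74% of all genes tested. Fibroblast markers (7 genes) ran from 3669 to 5682 CPM in young and from 3277 to 9567 in aged, and smooth muscle markers (8 genes) from 32354 to 40283 and from 28083 to 33396. All 8 smooth muscle markers had a lower fitted level in the aged libraries, where 47.9% of all genes did. Their log2 fold changes had a median of -0.32, beside -0.43 for the members. At an unadjusted p below 0.05, 4 were lower, against 4.82% of all genes tested. All 8 macrophage and 6 of 7 fibroblast markers had a higher fitted level, with median log2 fold changes of 1.35 and 1.33. At an unadjusted p below 0.05, 7 and 4 of them were higher, against 5.56% of all genes. EdgeR called 0 of both lists, and DESeq2 called 4 and 2, where it called 2.03% of all genes. Endothelial markers (7 genes) summed to 1666 CPM in aged replicate 3, the library with the lowest member levels, and to 384 to 537 elsewhere. Schwann cell markers (8 genes) ran from 78.1 to 201 CPM in young and 188 to 233 in aged, and hepatocyte markers (5 genes) from 21 to 132 and from 13.2 to 24.8. None of the defining markers Myh11, Pecam1, Pdgfra, Cd68, Adipoq, Ucp1, Myh6 and Alb was at 0 in any library. The part of these cell types, of the sex-linked and clock gene differences in the member levels was not tested.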

How the data were processed

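RNA of 6 mouse aorta libraries was analysed, 3 young and 3 aged, grouped by the age in the labels. The authors counted reads per gene and deposited whole-number counts without normalization. The deposited FPKM are the authors' counts scaled for gene length and library. The labels name the build mm10, and the aligner, the counting tool, its strand setting and the annotation are not given in the sources used here. Gene identifiers are Ensembl, 55154 of 55335 were found in GENCODE M21, and coordinates are GRCm38.

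R 4.3.3 was used. Low counts were removed by filterByExpr of edgeR 4.0.16 (a minimum count of 10 and a total of 15), TMM factors were computed, and age was the only term of the quasi-likelihood fit. Benjamini-Hochberg adjustment ran over 16612 genes, with a threshold of 0.05. Totals of 31049632 to 45832185 counts set the depth, and the least counted member, Idi1, had 205 to 623 counts per library. Exact permutation tests of 3 against 3 on log2 CPM were two-sided. Libraries of a group differed by more than sampling noise. P values set the age difference against the spread between libraries of single mice. That spread includes the marker differences of young replicate 1 and aged replicate 2.

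Alternatives were RLE size factors, library totals without mitochondrial genes, no filter, a floor of 10 counts in every library, a block for the replicate number, robust fitting, DESeq2 1.42.0, limma 3.58.1 (log2 FPKM plus 1 or plus 0.1), and libraries left out. The genes named are the 8 members, the 3 genes of each other lipid list with the largest absolute log2 fold change, the 5 genes most like the members, and the first gene of each marker list. Some genes that this rule picks are not reported here. Xist, Ddx3y, Arntl, Scap, Ctsb and Dhcr7 were added after their values had been seen. The members and lists were chosen with earlier results of these data known. Lists were written from general knowledge. Promoter windows come from RefSeq (GRCm38.p6).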

Additional observations from a re-analysis of the deposited data

How the results depend on the processing

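Members called numbered 0 under every alternative. Over all genes, edgeR called 0, DESeq2 called 338 (221 higher, 117 lower) and edgeR without aged replicate 2 called 110, so leaving out libraries gave 0 to 110. Of the other pathway genes 0 were called, and 1 by DESeq2. The number of members lower in aged aorta was 6, 4 to 8 with libraries left out, and 8 by limma. Their median log2 fold change was -0.43, ran from -0.73 to -0.0014 with libraries left out, and was -0.57 and -0.62 by limma with pseudocounts of 1 and 0.1, where the median of all genes was -0.12 and -0.19. The replicate block changed no call and gave a median of -0.41. Same-numbered young and aged libraries had correlations of 0.0786, 0.1166 and 0.0957 in their deviations. Differently numbered ones had correlations from -0.1335 to 0.0549, so the same-numbered values were the higher ones, though small. The labels do not say that the numbers pair the mice, and the main fit did not use them.

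Idi1 turned to -0.02 with totals free of mitochondrial genes, to -0.05 with the replicate block, to -0.18 and -0.26 by limma, and ran from -0.43 to 0.25 with libraries left out (-0.06 without young replicate 3, -0.41 without both libraries that stand apart). Fdft1 was -0.17 and -0.21 by limma and ran from -0.38 to 0.39 with libraries left out. Fdps ran from -0.72 to 0.11 and Insig1 from -1.03 to 0.17. Pdss2 was -0.04 with the replicate block, -0.08 and -0.22 by limma, and ran from -0.45 to 0.32. Erlin1 was -0.002 by limma with the smaller pseudocount. With libraries left out, Stard4 ran from -0.88 to 0.07, Fasn from -1.24 to 2.93, Elovl6 from -1.61 to 2.58 and Acly from -0.68 to 2.41. The cause of these turns was not tested. The other 115 of 128 values of the members kept their sign and their side of the threshold.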
